A study of Homo sapiens with 3 samples.

Results

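The genes described here encode the coats of transport vesicles: the coatomer (COPI) subunits, the COPII coat with its GTPases and scaffolds, the clathrin chains and the subunits of the adaptor protein complexes AP-1 to AP-5. The rule that picked them reads the gene symbol and no measured value, although the set itself was drawn up with earlier results of these data known, and 51 of the 18417 genes measured matched. Of the 54 current protein-coding genes that the symbols cover, COPG2 and AP3S2 lie only on probe sets annotated to several genes and AP5B1 is not listed on a probe set, so that these 3 have no level of their own here. ARCN1, the delta subunit of coatomer, does not carry a matching symbol and is given beside the members. Total RNA came from 3 independent, untreated and exponentially growing cultures of C33A, an established human cervical carcinoma cell line, and each culture was hybridized to its own Affymetrix Human Gene ST array. All arrays therefore belong to 1 group, with no second condition, and every level below is a log2 intensity normalized by the Robust Multichip Average method.

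Vesicle coats bend a membrane into a bud and load it with cargo. COPII coats form at exit sites of the endoplasmic reticulum (ER) and carry new proteins towards the Golgi, whereas COPI coats return proteins from the Golgi to the ER and move them within the Golgi. Clathrin is joined to membranes by adaptors, AP-1 at the trans-Golgi network and endosomes and AP-2 at the plasma membrane; AP-3 sorts cargo to lysosomes and related organelles, and AP-4 and AP-5 act without clathrin. Many subunits exist as paralogs, genes of a common ancestor that can take the same place in a coat.

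Over all probe sets, Pearson's r between the arrays was 0.993 to 0.994. The array medians were between 6.19 and 6.20 log2, which follows from the common distribution that the normalization gives the arrays. A single gene could still differ between arrays: CHD8, the gene of the chromatin remodeller studied, read 8.07, 9.33 and 9.20 log2 (SD 0.69). Since no detection call comes with the values, a level was set against a bound of 6.41 log2, the 95th percentile of 480 genes that few tissues transcribe (68 for keratin-associated proteins, 24 for beta-defensins, 361 for olfactory and 27 for taste receptors). A gene was called above or below this bound by limma's two-sided moderated test, adjusted by the Benjamini-Hochberg method over all 18417 genes, at a threshold of 0.05. The bound is not a border between silent and transcribed genes: the keratin-associated protein gene KRTAP5-3 stood at 8.84 log2, and the signal of a probe set depends on its sequence as well as on the amount of transcript, so that the order of genes by level is approximate. The labelled cell type was checked against 10 epithelial markers, of which 9 were measured. KRT18 at 7.75 and KRT14 at 6.86 log2 were above the bound, while EPCAM (4.52), CDH1 (4.95), KRT19 (5.92), KRT8 (5.75), KRT5 (5.03), CLDN4 (5.02) and CLDN7 (5.67) were below it. Of markers of other cell types, 2 of 5 leukocyte, 2 of 6 fibroblast and 0 of 5 endothelial genes were above the bound, led by COL3A1 at 11.36 and PTPRC at 8.82 log2.

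COPZ1 and COPZ2 encode the zeta subunit of coatomer and replace each other in the coat. Their promoters are shown because COPZ1 was among the highest members and COPZ2 among the lowest. The promoter windows below run from 250 bases before to 50 bases after the RefSeq start of each gene (build GRCh38.p14), COPZ1 at chr12:54324881-54325180 on the plus strand and COPZ2 at chr17:48037748-48038047 on the minus strand, both written along the direction of transcription. Capitals mark the CCAAT box (CCAAT, on either strand) and the ETS core (CCGGAAG, on either strand).
COPZ1: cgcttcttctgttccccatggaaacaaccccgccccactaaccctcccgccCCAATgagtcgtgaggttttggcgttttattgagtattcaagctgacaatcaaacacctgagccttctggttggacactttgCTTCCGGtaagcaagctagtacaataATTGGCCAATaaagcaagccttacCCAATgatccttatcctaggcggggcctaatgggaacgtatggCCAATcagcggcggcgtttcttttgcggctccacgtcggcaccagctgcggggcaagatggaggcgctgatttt
COPZ2: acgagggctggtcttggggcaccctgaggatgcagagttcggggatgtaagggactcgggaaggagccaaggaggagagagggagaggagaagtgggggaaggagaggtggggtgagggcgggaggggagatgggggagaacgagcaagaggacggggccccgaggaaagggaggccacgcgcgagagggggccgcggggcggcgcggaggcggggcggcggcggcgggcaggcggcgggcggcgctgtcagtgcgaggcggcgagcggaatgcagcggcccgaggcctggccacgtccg
The COPZ1 window holds 5 CCAAT boxes and 1 ETS core in a sequence of 52.7% G and C, with 16 CG dinucleotides. As many as 5 CCAAT boxes were found in 126 of the 35116 RefSeq windows of this length (0.359%). That share describes 1 window chosen by its gene's level, and a link between CCAAT boxes and level was not tested. At least 1 CCAAT box was found in 30% of the COPI and COPII genes, against 43.8% of measured genes of the high tertile. The COPZ2 window is richer in G and C (73.3%, 32 CG dinucleotides) and has no match to any of the motifs searched.

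Each zeta gene also carries a microRNA hairpin, MIR148B inside COPZ1 (chr12:54337216-54337314, plus strand) and MIR152 inside COPZ2 (chr17:48037161-48037247, minus strand). Their main products are shown because the paralogous hosts hold paralogous microRNAs, with the seed (bases 2 to 8, which pairs with target transcripts) in capitals.
hsa-miR-148b-3p: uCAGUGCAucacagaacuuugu
hsa-miR-152-3p: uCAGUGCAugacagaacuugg
The seeds are identical, and the sequences differ at 2 of the first 21 positions. The array measures precursors rather than mature microRNAs. The MIR148B probe set read 4.04, 4.0 and 3.73 log2 on the 3 arrays, below the bound, and the MIR152 probe set 6.52, 6.07 and 6.26, neither above nor below it. MIR148B thus had the lower precursor signal, and its host COPZ1 the higher level. Neither microRNA probe set was above the bound, so that the difference between them is one of signals and not of precursor amounts. These probe sets of short transcripts were not set against those of their hosts in a test.

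Coat genes stood high in the distribution of levels. The median over the 51 members was 9.38 log2 (quartiles 8.24 and 10.45), against 6.91 over all genes (quartiles 5.18 and 8.68), and the median of the members was 9.35, 9.43 and 9.39 on the 3 arrays (SD 0.04). Above the bound were 46 members, with limma adjusted p from 6.06e-08 to 0.00183, against 54.5% of all genes. Below it were the other 5 members, COPZ2, AP4S1, AP3B2, AP1M2 and SEC16B, against 41.1% of all genes. When all genes were ranked and divided into 3 equal groups (tertiles, with bounds of 5.74 and 8.14 log2), 38 members fell in the high tertile and 11 in the medium one, with 2 left in the low, where each tertile holds 33% of all genes. In decile 10, the highest, were 21 members, against 10% of all genes. Without the 8 members that have a named pseudogene in RefSeq, a setting chosen after the data were seen, 39 of 43 were above the bound. Whether transcripts of paralogs or pseudogenes bind the same probes was not tested.

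**Figure D1:**
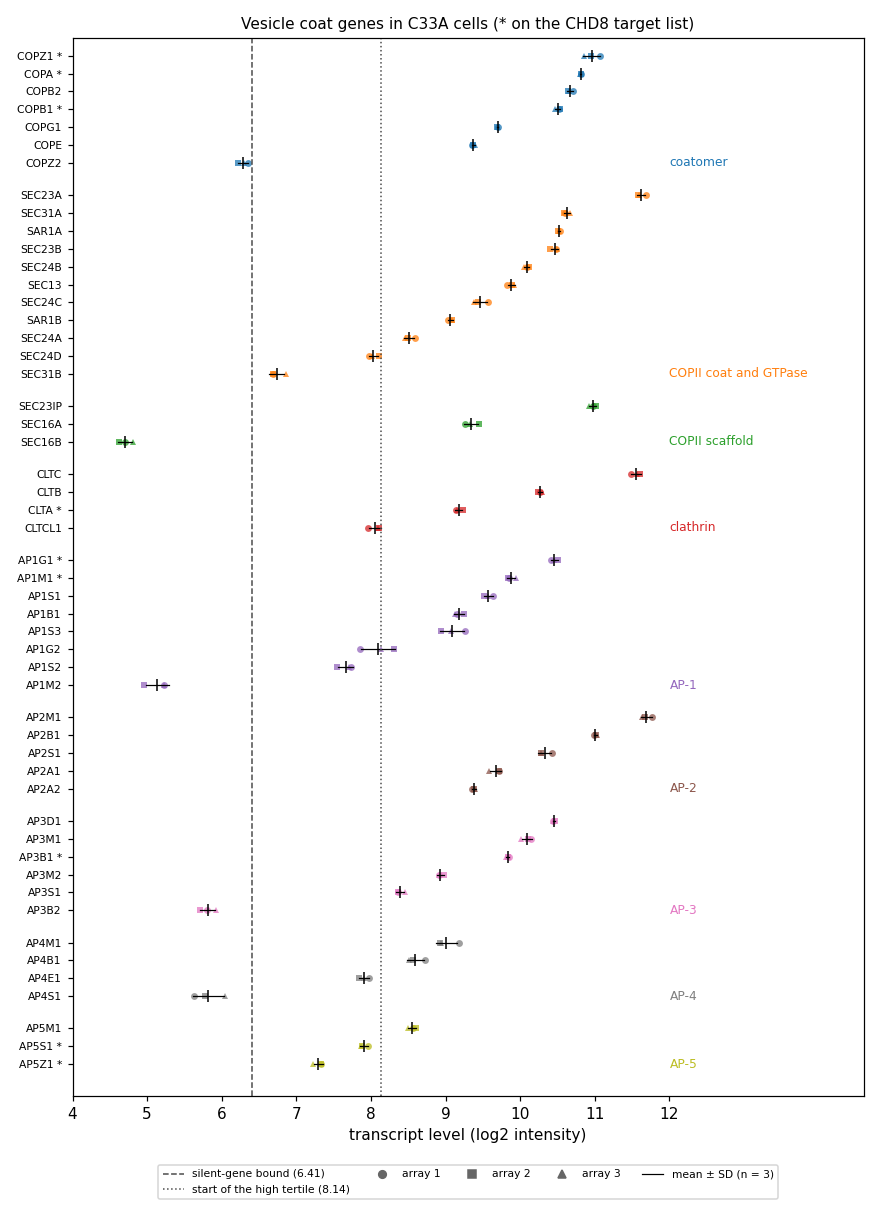
Level of each of the 51 coat genes on each of the 3 arrays (symbols; x axis, log2 intensity), with the mean and SD as a black bar, grouped by coat and ordered by level within it. The dashed line is the bound from silent families (6.41) and the dotted line the start of the high tertile (8.14); 5 genes lie left of the dashed line, and the AP-5 genes end at 8.55.

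The coatomer subunits other than COPZ2 were all in the high tertile, between 9.37 for COPE and 10.96 log2 for COPZ1. The median was 10.50 log2 over 7 genes, and 6 of the 7 were above the bound. COPA, the alpha subunit, which reads the retrieval signal of ER proteins, stood at 10.81, 10.81 and 10.80 log2 on the 3 arrays, the smallest spread of any member (SD 0.0096). COPB1, the beta subunit, was at 10.51, 10.53 and 10.47. COPB2, the beta-prime subunit that builds the outer layer with COPA, was at 10.71, 10.64 and 10.66. These 3 genes kept the order COPA, COPB2, COPB1 on every array, within a span of less than 1 log2.

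COPG1, the gamma subunit, which touches the GTPase ARF1 on the membrane, had 9.70, 9.68 and 9.71 log2. COPE, the epsilon subunit, which steadies COPA in the complex, had 9.35, 9.37 and 9.39. Both lay below every value of COPA, COPB1, COPB2 and COPZ1, in decile 9 rather than decile 10. ARCN1, the delta subunit that the symbols do not cover, averaged 10.42 ± 0.03 log2 (SD, n = 3), between COPB1 and COPG1.

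COPZ1 read 11.08, 10.95 and 10.85 log2, the highest coatomer subunit on all arrays. COPZ2 read 6.35, 6.21 and 6.30. Its difference from the bound was −0.12 log2 (limma, adjusted p = 0.0491), a call that was lost without the second array (adjusted p = 0.139), without the third (0.279) and with limma's trend in the variance (0.087). COPZ2 turned to above with the bound at the 90th percentile (0.55 log2, limma adjusted p = 0.000107) and with a bound from olfactory receptors alone (0.85 log2, 1.49e-05). COPZ1 stood 4.55 log2 above the bound. The measured signals of the paralogs did not overlap and differed by 4.67 ± 0.10 log2 (SD, n = 3 arrays).

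The COPII coat genes were all above the bound, 11 of 11, with a median of 9.88 log2. SAR1A and SAR1B encode the GTPases that start coat assembly on the ER. SAR1A had 10.53, 10.51 and 10.52 log2 and SAR1B 9.03, 9.08 and 9.08, a difference of 1.45 ± 0.04. RefSeq names 4 pseudogenes of SAR1A. PREB, the ER protein that loads SAR1 with GTP, was at 9.90 log2, among the levels of the coat it starts.

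SEC23A and SEC23B form the inner coat and stimulate GTP hydrolysis by SAR1. SEC23A had 11.68, 11.58 and 11.60 log2, the second highest member after AP2M1, and SEC23B 10.48, 10.40 and 10.50. The paralogs were 1.16 ± 0.05 log2 apart, and both were in decile 10.

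The SEC24 proteins bind cargo, and each has its own range of export signals. SEC24B led with 10.09, 10.11 and 10.05 log2, and SEC24C followed with 9.57, 9.43 and 9.38. SEC24A had 8.58, 8.50 and 8.45, and SEC24D 7.98, 8.10 and 8.02. The order B, C, A, D held on every array without overlap. SEC24A minus SEC24B was −1.57 ± 0.06 log2 and SEC24C minus SEC24D 1.43 ± 0.14 (SD, n = 3 arrays).

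SEC13 and the SEC31 proteins build the outer cage. SEC13, which is also part of the nuclear pore, had 9.83, 9.89 and 9.92 log2. SEC31A had 10.61, 10.59 and 10.67, and SEC31B 6.68, 6.68 and 6.85, the lowest COPII coat gene and 0.33 log2 above the bound (limma, adjusted p = 0.00183). With the bound at the 99th percentile SEC31B turned to below (−1.11 log2, limma adjusted p = 8.29e-06). The SEC31 paralogs were 3.88 ± 0.06 log2 apart, the widest gap within the COPII coat.

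The scaffolds that organize ER exit sites split in the same manner. SEC23IP, a partner of SEC23, was at 10.97, 11.02 and 10.93 log2 and SEC16A, the main organizer of the sites, at 9.26, 9.44 and 9.33. SEC16B, a shorter relative, was the lowest of all 51 members at 4.70, 4.62 and 4.81 log2, 1 of the 2 members in the low tertile, with a difference from the bound of −1.70 log2 (limma, adjusted p = 1.27e-06). SEC16A stood 2.93 log2 above the bound, and the measured signals differed by 4.64 ± 0.17 log2.

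All 4 clathrin chains were above the bound, with a median of 9.72 log2. CLTC, the heavy chain that forms the triskelion of the clathrin lattice, had 11.48, 11.61 and 11.57 log2, the third highest member. CLTCL1, the other heavy chain, had 7.95, 8.10 and 8.09, just under the start of the high tertile, and CLTC exceeded it by 3.50 ± 0.02. The light chains, which regulate assembly, stood closer together. CLTA had 9.14, 9.23 and 9.16 log2 and CLTB 10.27, 10.23 and 10.29, so that CLTA minus CLTB was −1.09 ± 0.07 log2 and CLTB was the higher chain on all arrays.

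AP-1 had 7 of 8 subunits above the bound and a median of 9.13 log2. AP1G1, the gamma subunit, stood at 10.42, 10.51 and 10.45 log2, and AP1G2, its relative, at 7.85, 8.30 and 8.14. AP1G2 had the largest spread of all members (SD 0.23), as large as in only 1.52% of the genes of its decile, and its values lay on either side of the border of the high tertile. The gamma paralogs were 2.36 ± 0.19 log2 apart. AP1B1, the beta subunit, averaged 9.18 ± 0.06 log2 (SD, n = 3).

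AP1M1, the medium subunit found in most cells, had 9.84, 9.84 and 9.94 log2. AP1M2, the form that polarized epithelia use to sort proteins to the basolateral membrane, had 5.23, 4.96 and 5.22, a difference from the bound of −1.27 log2 (limma, adjusted p = 1.37e-05). AP1M1 stood 3.47 log2 above the bound that AP1M2 did not reach. The measured signals differed by 4.74 ± 0.13 log2. Beside it, 7 of the 9 epithelial markers were below the bound, with sums of log2 levels of 51.9, 50.9 and 51.6 on the 3 arrays, and the part of the state of the cells in the AP1M2 level was not tested.

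The small subunits of AP-1 lay on 3 levels. AP1S1 had 9.63, 9.51 and 9.57 log2, AP1S3 9.26, 8.94 and 9.07, and AP1S2, an X-linked gene mutated in intellectual disability, 7.73, 7.54 and 7.70. AP1S1 exceeded AP1S3 by 0.48 ± 0.10 and AP1S2 by 1.91 ± 0.05 log2. AP1S2 is also listed on a probe set shared with LOC653653, which read 9.78, 9.63 and 9.75, and with that probe set averaged in, the difference from AP1S1 was 0.88 log2.

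AP-2, the adaptor of endocytosis at the plasma membrane, had all 5 subunits above the bound and in the high tertile, with a median of 10.33 log2. AP2M1, which binds the tyrosine signals of receptors, was the highest of all members at 11.77, 11.67 and 11.63 log2. AP2B1, the beta subunit that binds clathrin, had 10.98, 11.01 and 11.03, and AP2S1, the small subunit, 10.43, 10.28 and 10.28. The large alpha subunits were the closest pair of paralogs: AP2A1 had 9.72, 9.71 and 9.59 log2 and AP2A2 9.35, 9.38 and 9.40, which is a difference of 0.29 ± 0.09 log2 with AP2A1 higher on all arrays.

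AP-3 had 5 of 6 subunits above the bound, with a median of 9.38 log2. AP3D1, the delta subunit, averaged 10.45 ± 0.01 log2 and AP3S1, the small subunit, 8.39 ± 0.05 (SD, n = 3 each). AP3B1, the beta subunit mutated in Hermansky-Pudlak syndrome, had 9.85, 9.83 and 9.81 log2. AP3B2, the neuronal beta subunit, had 5.80, 5.71 and 5.92, with a difference from the bound of −0.60 log2 (limma, adjusted p = 0.00014). That call turned to above with a bound from olfactory receptors alone (0.37 log2, limma adjusted p = 0.00119) and was lost with the bound at the 90th percentile (0.255). AP3B1 stood 3.42 log2 above the bound, and the measured signals differed by 4.02 ± 0.12 log2. AP3M1, the medium subunit, had 10.15, 10.10 and 10.02 log2, and AP3M2, its form best known from neurons, 8.91, 8.98 and 8.91. The neuronal forms thus differed in rank, AP3M2 in decile 8 and AP3B2 in decile 4.

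The levels of AP-4 and AP-5 lay lower, with no subunit in decile 10. AP-4, whose loss causes a hereditary spastic paraplegia, had 3 of 4 subunits above the bound and a median of 8.25 log2. AP4M1 averaged 9.01 ± 0.14, AP4B1 8.60 ± 0.11 and AP4E1 7.91 ± 0.07 log2 (SD, n = 3 each). AP4S1, the small subunit, read 5.63, 5.78 and 6.05 log2, below the others on every array, with a difference from the bound of −0.59 log2 (limma, adjusted p = 0.00128). This call too turned to above with olfactory receptors alone (0.38 log2, limma adjusted p = 0.00803) and was lost at the 90th percentile (0.409). TEPSIN, an accessory protein of AP-4, was at 7.33 log2.

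AP-5 acts at late endosomes together with SPG11 and ZFYVE26. Its 3 measured subunits were above the bound, with a median of 7.90 log2: AP5M1 averaged 8.55 ± 0.05, AP5S1 7.90 ± 0.05 and AP5Z1 7.30 ± 0.06 log2 (SD, n = 3 each). The partners SPG11 at 8.17 and ZFYVE26 at 8.28 log2 lay within the range of the subunits.

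Across the 18 paralog pairs listed, 16 had a level for each gene, and in all 16 the 3 values of one paralog lay wholly above those of the other. This lack of overlap is not particular to paralogs. Over all genes the levels had quartiles of 5.18 and 8.68 log2, against a median SD of 0.08. Even of the 50 pairs of members next to each other in the order by level, 19 did not overlap. The share among other pairs of genes was not counted. The gene named first in a paralog pair was higher in 14 pairs and the other in 2, the SEC24A and SEC24B pair and the light chains. In 7 pairs the paralogs were 2 log2 or more apart, and in 2 pairs, AP1S1 with AP1S3 and AP2A1 with AP2A2, less than 1 log2. With 3 arrays, an exact sign-flip permutation test of a pair cannot give a p below 0.25, so that the differences are given as descriptions. Each also includes the unequal response of the probe sets of a pair, which is the same on every array and is not part of the SD. In the 4 pairs with COPZ2, AP1M2, SEC16B and AP3B2 the lower paralog was below the bound, so that the difference there is one of signals and not of transcript amounts.

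**Figure D2:**
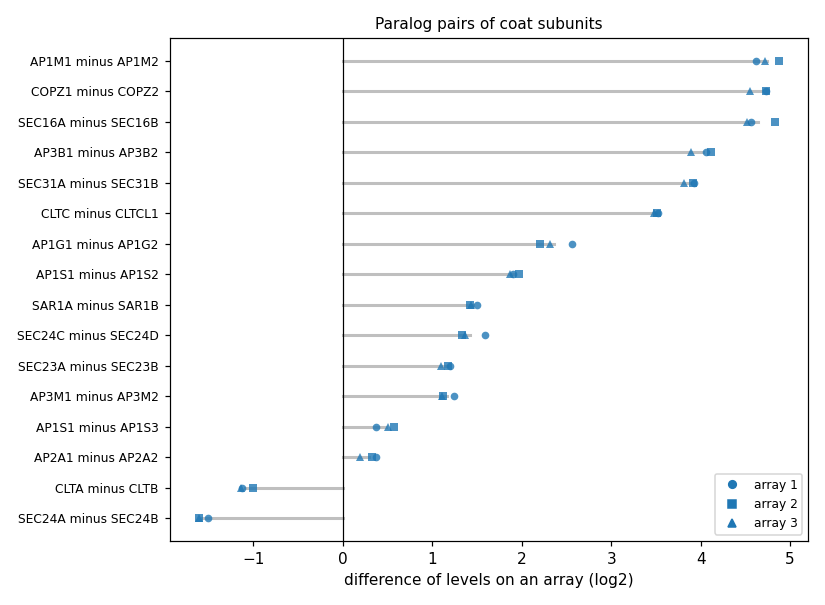
Difference of level between 2 paralogs on each of the 3 arrays (symbols; x axis, log2) for the 16 pairs measured, with the mean as the end of the grey bar. The 6 pairs at the top lie beyond 3 log2 and all but 2 lie right of 0; in the 4 uppermost the lower paralog was below the bound, and the differences run from 4.74 for AP1M1 minus AP1M2 to −1.57 for SEC24A minus SEC24B.

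The arrays measured the coat genes with about the precision usual at their level. The SD over the cultures had a median of 0.06 log2 over the members, against 0.05 as the typical value of all genes in the same deciles and 0.08 over all genes. AP1G2, AP4S1 and AP1S3 ranged over more than 0.3 log2 between arrays. The highest value fell on array 1 for 21 members, on array 2 for 16 and on array 3 for 14. Of the 50 neighbouring pairs in the order by level, 19 did not overlap on the 3 arrays and 31 did, so that most neighbours were not separated by their spread. AP2M1 and SEC23A at the top, for example, overlapped, and so did SEC23A and CLTC.

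The study set transcript levels beside promoters bound by CHD8, a chromatin remodeller, in the same cell line. The members were therefore counted on the study's list of target genes, whose promoters were enriched for CHD8 in both of its ChIP-on-chip experiments. For COPZ1, the study also found CHD8 at the promoter by quantitative PCR of immunoprecipitated DNA. On the list were 9 of the 51 members (17.6%): COPA, COPB1, COPZ1, CLTA, AP1G1, AP1M1, AP3B1, AP5S1 and AP5Z1. The share was 9.63% of all genes measured, 16.5% of genes above the bound and 21.2% of genes in the high tertile. Of the 46 members above the bound, 19.6% were on the list, near the share of all genes above the bound. By coat, the list held 3 of the 7 coatomer genes, 0 of the 14 COPII coat, GTPase and scaffold genes, 1 of 4 clathrin chains, 2 of 8 AP-1, 0 of 5 AP-2, 1 of 6 AP-3, 0 of 4 AP-4 and 2 of 3 AP-5 subunits. These counts are small and no difference between coats was tested.

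All 9 listed members were above the bound. Their median level was 9.88 log2, against 9.36 for the 42 members off the list, while the medians over all genes were 9.11 on the list and 6.58 off it. The listed members were 7 in the high tertile and 2, AP5S1 and AP5Z1, in the medium. The higher paralog was the listed one in the pairs COPZ1 and COPZ2, AP1G1 and AP1G2, AP1M1 and AP1M2, and AP3B1 and AP3B2, but in the light chains CLTA, the lower, was listed and CLTB was not. SEC23A, CLTC and AP2M1, the 3 highest members, are not on the list.

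Promoter sequence was compared between coats over the RefSeq windows of 300 bases, which exist for 46 of the 51 members. Member windows were richer in G and C than all windows, with medians of 65.2% and 58.7%, and held a median of 28.5 CG dinucleotides against 14. These medians were not taken for genes of the high tertile, so a difference from other genes of high level was not tested. A gene was counted for a motif if any of its windows held a match, so genes with several windows had more chances. The 46 member genes had 64 windows, and the 27305 genes with a window had 35116. Of 9 motifs counted on both strands, the ETS core and the UPRE had the widest margins between the COPI and COPII genes and the high tertile. The ETS core CCGGAAG was found in 14 of the 20 COPI and COPII genes (70%), in 4 of the 26 clathrin and adaptor genes (15.4%), in 26.5% of the measured genes of the high tertile and in 12.2% of all genes with a window. The UPRE, the unfolded protein response element TGACGTGG, was found in 7 of the 20 COPI and COPII genes (35%). Its share was 1.33% among genes of the high tertile and 0.927% among all genes. It was found in 0 of the 26 clathrin and adaptor genes, where shares of that size would leave few or no matches. The 0 is therefore near the share of other genes. The UPRE is known as a site of XBP1 and ATF6, the factors that raise secretory genes when the ER is stressed.

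The UPRE matches of the COPI and COPII genes are shown with 12 bases on either side, in the direction of transcription, because of their share there. Capitals mark TGACGTGG or its complement CCACGTCA.
COPA, chr1:160343226-160343257, minus strand: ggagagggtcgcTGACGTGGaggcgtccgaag
COPB1, chr11:14499840-14499871, minus strand: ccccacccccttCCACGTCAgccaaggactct
COPB2, chr3:139389631-139389662, minus strand: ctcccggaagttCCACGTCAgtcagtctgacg
COPB2, chr3:139389824-139389855, minus strand: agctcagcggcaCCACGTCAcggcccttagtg
SEC16A, chr9:136484706-136484737, minus strand: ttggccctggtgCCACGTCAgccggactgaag
SEC16B, chr1:177984296-177984327, minus strand: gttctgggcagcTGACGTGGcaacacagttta
SEC23A, chr14:39103220-39103251, minus strand: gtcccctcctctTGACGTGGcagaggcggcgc
SEC24A, chr5:134648594-134648625, plus strand: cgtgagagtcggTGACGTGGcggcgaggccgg
The match begins 5 bases after the listed start in COPA, 4 bases before it in SEC23A and 48 bases before it in COPB1. The matches farthest upstream begin 196 bases before a start in COPB2 and 179 bases before it in SEC24A. The genes with the element covered nearly the whole range of levels, SEC23A at 11.62 log2 being the second highest member and SEC16B at 4.71 the lowest. A match is a description of these letters and not a measured binding site, and the cultures were not treated to stress the ER.

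The remaining motifs were not more frequent in the COPI and COPII genes to the same degree. The CCAAT box was in 30% of them, against 43.8% of the high tertile, and the E2F motifs TTTCCCGC, TTTCGCGC, TTTGCCGC and TTTGGCGC in 5%, against 7.67%. The E-box CACGTG was in 15% against 14.1%, the NRF1 site in 10% against 3.39%, the YY1 site AAGATGGC in 10% against 8.77%, and the CRE TGACGTCA in 0% against 4.57%. The ER stress element (ERSE), which contains a CCAAT box, was in 0% against 0.212%. With 20 genes, 1 gene is 5%, so that most of these shares rest on few genes.

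**Figure D3:**
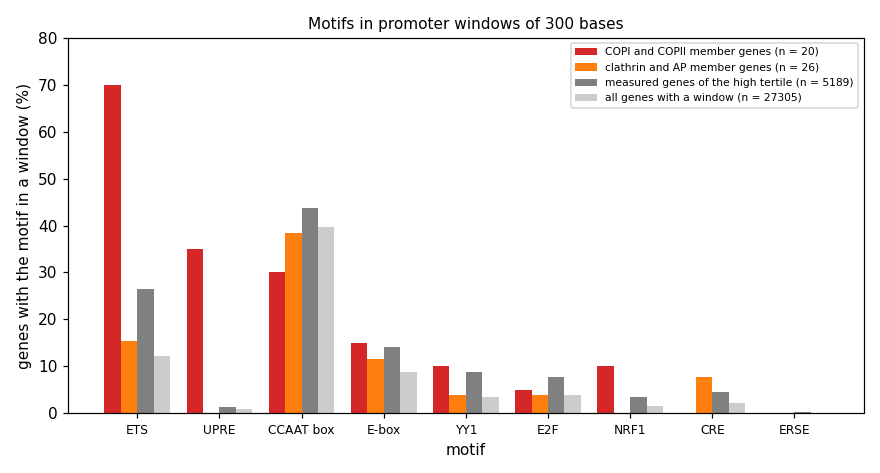
Share of genes (y axis, percent) with each of 9 motifs in a promoter window of 300 bases, for 20 COPI and COPII member genes (red), 26 clathrin and adaptor member genes (orange), 5189 measured genes of the high tertile (dark grey) and 27305 genes with a window (light grey). The red bars of the ETS core (70%) and the UPRE (35%) rise above both grey ones; the orange bars stand at 15.4% for the ETS core, between the grey bars, and at 0% for the UPRE.

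The proteins that work with the coats were measured as lists. All 12 measured partners of COPI (of 13 listed) were above the bound and in the high tertile, with a median of 9.63 log2, from ARFGEF1, an exchange factor, at 8.38 to ARF1, the GTPase that recruits coatomer, at 11.42. Among the 9 measured partners of COPII, 8 were above the bound, with a median of 8.55, and the highest was TRAPPC3, a tethering subunit, at 10.29. The other was MIA2, a cargo receptor at exit sites, with 2 probe sets that the annotation lists under different gene numbers. These probe sets read 2.49 and 7.13 log2, on either side of the bound. The call of MIA2 below the bound (mean 4.81) comes from averaging them. The 16 measured receptors and cargo adaptors of the ER and Golgi (TMED, KDELR, LMAN, ERGIC and related genes) had a median of 10.26, and 15 were above the bound, led by ERGIC3 at 11.69. KDELR3, a receptor that returns ER proteins, stood at 6.40, neither above nor below.

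The 35 measured partners of clathrin were more mixed, with a median of 8.46 log2 and 30 above the bound. HSPA8, the chaperone that strips clathrin from vesicles, was the highest at 13.65 log2. Below the bound were DNM3 (5.34), SNAP91 (4.72), AMPH (4.67), STON2 (3.95) and DAB2 (3.65), of which the first 3 are best known from neurons. The clathrin partners thus included genes as low as the lowest members, which the COPI partners did not. On the CHD8 target list were GBF1 of the 12 measured COPI partners and SEC22B, GOSR2 and MIA2 of the 9 COPII partners. It also held TMED2, SURF4 and TMED10 of the 16 receptors and HSPA8, DNM2, NECAP1 and SNX9 of the 35 clathrin partners. Of the 3 genes listed as AP-5 partners, ZFYVE26 was on it. The list held 9.63% of all genes measured and 16.5% of genes above the bound, and no difference from these shares was tested.

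**Figure D4:**
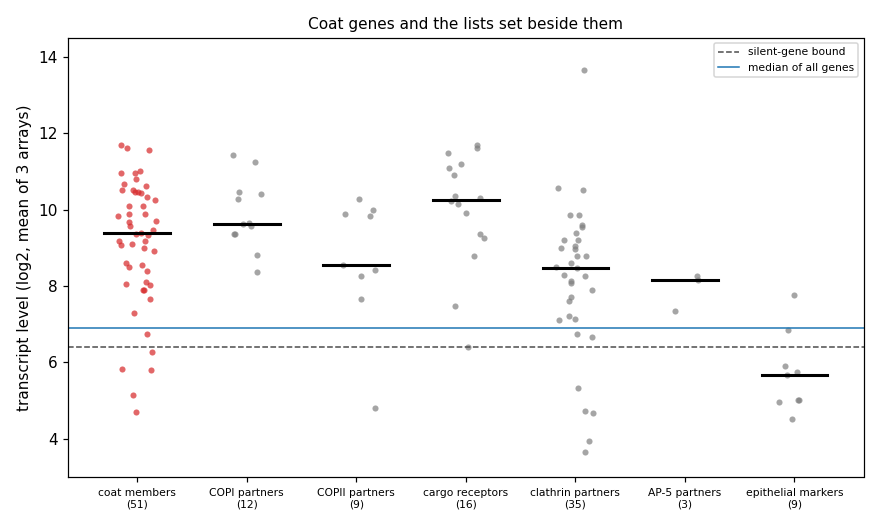
Mean level over 3 arrays (y axis, log2 intensity) of each gene (points) of the 51 coat members and of the lists set beside them, with the median as a black bar and the number of genes under each name. The dashed line is the bound of 6.41 and the blue line the median of all genes (6.91); the medians of the coat genes (9.38) and of their partners lie above the blue line, and that of the epithelial markers (5.67) below it.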

How the data were processed

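Total RNA of 3 C33A cultures was labelled and measured on Affymetrix Human Gene ST arrays. The deposited table holds a log2 intensity for each probe set on each array, which the authors obtained with the Robust Multichip Average (RMA) and oneChannelGUI. For neither tool is a version given in the sources used here. RMA gives the arrays a common distribution, so that differences in total RNA are removed.

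Genes were assigned with GEO's platform annotation and, for current names, the RefSeq gene table of GRCh38.p14. Of 33297 probe sets, the 19460 with 1 symbol were averaged per gene, and neither the 1754 with several symbols nor the 12083 without a listed gene were used. Each member had only 1 probe set with 1 symbol, so that no averaging took place for the members. Of the 18417 genes, 18392 were found in the RefSeq table. The members and lists were chosen with earlier results of these data known. Every measured member may be named, with the value on each array for coatomer subunits, paralog pairs and members below the bound. Of other genes, those of the partner and marker lists are named where they are the highest or lowest of a list, below the bound, targets, or direct partners of a coat.

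Levels minus the bound were tested with limma 3.58.1 (R 4.3.3) over all genes, the bound taken as free of error, and the script was tested on simulated data. The CHD8 target list of the study was matched by accession, symbol or synonym. The measured genes held 1773 of its 1965 genes. Promoter and microRNA sequences are those of RefSeq. Counts used Python 3.11.15, NumPy 2.4.6, pandas 2.3.3 and matplotlib 3.10.9. Alternatives changed the bound, the variance model, the genes tested, the probe sets, the symbols, the centring, the tertiles and the arrays used. The 3 arrays limit the precision, and p-values measure only the spread between these cultures.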

Additional observations from a re-analysis of the deposited data

How the results depend on the processing

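The count of members above the bound was 46 without each replicate in turn (46 to 46), 47 with the bound at the 90th percentile of the silent families, 41 at the 99th and 49 with olfactory receptor genes alone. With probe sets of several symbols added it was 48 of 53, and in the high tertile were 40. Without each replicate, the high tertile held 38 to 39 members, the median level was 9.37 to 9.39 log2, the median SD 0.0428 to 0.0557 log2, and all 16 pairs still did not overlap. The count on the CHD8 target list was 7 with symbols matched as written. Over the 12 settings of the level test, 43 members kept their call and 8 did not. Not all settings could change a call. As 0 members have more than 1 probe set with 1 symbol, taking the highest probe set of a gene left their levels unchanged. The setting of platform or current symbols tested the same values as the main one. Relative to the bound at the 90th percentile, COPZ2 turned to 0.55 log2 (limma, adjusted p = 0.000107), AP4S1 to 0.079 (0.409) and AP3B2 to 0.070 (0.255). With olfactory receptors alone these genes turned to 0.85 for COPZ2 (limma, adjusted p = 1.49e-05), 0.38 for AP4S1 (0.00803) and 0.37 for AP3B2 (0.00119). At the 99th percentile, AP1S2 turned to −0.19 (limma, adjusted p = 0.0189), AP5Z1 to −0.55 (8.12e-05) and SEC31B to −1.11 log2 (8.29e-06), and AP4E1 and AP5S1 at 0.06 each lost their call. These turns follow from the place of the bound, at 5.74, 5.44 and 7.85 log2, since the levels are the same. No paired analysis was possible because all arrays belong to 1 group. Dim genes are limited by the unknown background of their own probe sets: the silent families had a median of 4.07 log2, and a level near the bound has no sure reading.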

Other observations

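The probe sets left out of the levels because they carry several symbols gave values for the missing subunits that cannot be told apart from those of their neighbours. The probe set of COPG2 and TSGA13 read 7.54, 7.48 and 7.63 log2 on the 3 arrays, below COPG1 on each. The probe set of AP3S2 and the read-through gene ARPIN-AP3S2 read 9.84, 9.88 and 9.78, above AP3S1 on each. Hairpins of 8 microRNA genes lie inside the members, among them MIR576 in SEC24B, MIR6826 in COPG1, MIR6799 in AP2A1, MIR4653 in AP1S1 and MIR4656 in AP5Z1. MIR10226 lies in COPZ2 on the strand opposite to MIR152, and MIR4656 likewise lies on the strand opposite to its host AP5Z1.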
